A study of Mus musculus with 10 samples.

Results

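The genes examined are the nuclear genes for subunits of the mitochondrial respiratory chain and ATP synthase, taken as all protein-coding genes whose GENCODE vM21 symbol begins with Nduf (followed by a, b, c, s or v), Uqcr, Cox4 to Cox8 or Atp5, together with Sdha, Sdhb, Sdhc, Sdhd and Cyc1. By this rule 94 of the 40620 genes in the count table were members, and 1 further gene identifier of the annotation (95 in all) has no row in the table. They comprise 36 subunit genes of complex I, 8 complex I assembly factors (Ndufaf genes), 4 genes of complex II, 9 of complex III, 20 of complex IV (with Ndufa4 and Ndufa4l2) and 17 of complex V. RNA was sequenced from MC3T3-E1, an established mouse pre-osteoblast cell line that mineralizes when cultured in differentiation medium, and the labels name no genetic change in any group. Subconfluent and confluent cells were kept in growth medium (αMEM with serum), and cells of the 24 h, 14 d and 21 d groups had in addition ascorbic acid and β-glycerophosphate, which induce osteogenic differentiation, for the stated time. Each of the 5 stages had 2 replicates, named A and B. The labels do not say whether these were separate cultures, so the p-values measure the spread between these samples, which may be technical.

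The respiratory chain passes electrons from NADH (complex I) and succinate (complex II) through ubiquinone to complex III, then by cytochrome c to complex IV, which reduces oxygen, and the proton gradient built up on the way drives ATP synthase (complex V). Most subunits are encoded in the nucleus and imported, while a few core subunits are made inside the mitochondrion from its own genome. Some complex IV and V subunits exist as alternative proteins from separate genes, of which one is widespread and another is typical of heart and skeletal muscle or of particular tissues.

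Total counts on genes ranged from 44736156 to 162939333 per sample, and the members took 0.526% to 0.931% of them. All 8 osteoblast markers had more than 3 counts in at least 1 library. Their summed level was 5101 to 16140 RPKM (reads per kilobase of gene scaled to the size of the library). At 21 d against subconfluent cells 7 of the 8 were called higher, with log2 fold changes up to 8.94, so they were not all carried at a like level at every stage. Some of the listed markers of other cell types had at most 3 counts in each library. These were Plin1, Cidec, Lep and Ucp1 of fat cells, Myod1 and Myog of muscle, Ptprc and Adgre1 of leukocytes and Hbb-bs and Hbb-bt of red cells. The other 4 leukocyte markers (Csf1r, Cd14, Itgam and Lyz2) had enough counts to be tested, so that list was not at 0. The summed levels of these lists were at most 1.09 RPKM for the 6 fat cell markers, 14.5 to 44.0 RPKM for the 6 muscle markers (mostly Acta1), 19.6 to 30.7 RPKM for the 6 leukocyte markers and at most 0.340 RPKM for the 5 red cell markers. Of these lists, Fabp4 of fat cells, with at most 53 counts in a library, was higher at 21 d than in subconfluent cells (log2 3.48, adjusted p = 0.014) and at 24 h than in confluent cells (3.63, adjusted p = 0.035). The 6 fat cell markers together reached only 0.051 RPKM in subconfluent and 0.105 RPKM in confluent cells. Fabp4 thus passed the count filter through later stages, where it was high, so its p-values only describe these counts. Lyz2 of leukocytes was also higher at 21 d (0.59, adjusted p = 0.017), and Acta1 was lower (-1.48, adjusted p = 2.7e-04). Their part in the results was not tested. The column names show one pair of library indexes for subconfluent, confluent and 24 h cells and a different pair for 14 d and 21 d, so across these sets a stage difference and a library difference cannot be told apart. The 24 h replicates stood apart from each other. The spread of log2(A/B) over all genes (SD) was 0.674 at 24 h and 0.282 to 0.321 elsewhere. All 87 members with at least 10 counts in every library were higher in 24 h replicate A than in B, with a median log2 ratio of 0.69, while at the other stages the median lay between -0.13 and 0.00. The 24 h replicate A library also had 35.9% of its counts on genes shorter than 1000 bases, against 26.6% in replicate B, and the median member is 1229.5 bases long against 2681 for expressed genes. The part of gene length in this difference was not tested. Because 1 estimate of the spread is shared by all stages, counts of genes called are also given from a fit without the 24 h libraries.

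In cells differentiated for 21 d, respiratory chain transcripts were on the whole lower than in subconfluent cells. Of the 91 members that could be tested, 28 fell and 7 rose, and the median log2 fold change was -0.30, against 0.04 over all 20808 genes tested. Among all genes, 23.5% were called lower and 27.3% higher by the same test (edgeR's quasi-likelihood test, adjusted p under 0.05), so the share of members called lower was somewhat above that of genes in general and the share called higher was well below it. Fold changes include the TMM scaling of the libraries and so lie a little above ratios of RPKM. Most changes were small. More than 2-fold lower were 3 members (Ndufa4, Atp5g3 and Ndufa5). More than 2-fold higher were 6 (Ndufa6, Cox7a2l and 4 tissue-restricted genes with few counts). Among all genes 11.3% were lower and 16.3% higher by more than 2-fold. Of the 4, Cox7a1, Cox8b and Cox4i2 passed the count filter through stages where they were high, so their calls are no independent support. In the fit without the 24 h libraries 49 members fell and 15 rose, against 32.1% and 34.0% of the 19994 genes tested, with the same numbers past 2-fold (3 lower and 6 higher), and the median was -0.31. In bulk RNA a smaller number of cells of one kind and less RNA per cell cannot be told apart. The call counts rest on few libraries: without 21 d replicate A or B 19 members were called in all, without subconfluent replicate A or B 21 and 20, and without 24 h replicate A or B 63. The share of all genes called in these fits is not given, so their counts show only how far calls depend on single libraries. Another limit is strand. Of the 94 members 24 share exon bases with a gene on the opposite strand, and 8 of the 35 called members are among these. The use of strand in counting is not given in the sources used here. A further limit is that 8 members (Atp5k, Atp5l, Cox6c, Ndufa11, Ndufab1, Ndufb4, Ndufs6 and Uqcrh) have named pseudogenes with reads, which may be shared.

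**Figure D1:**
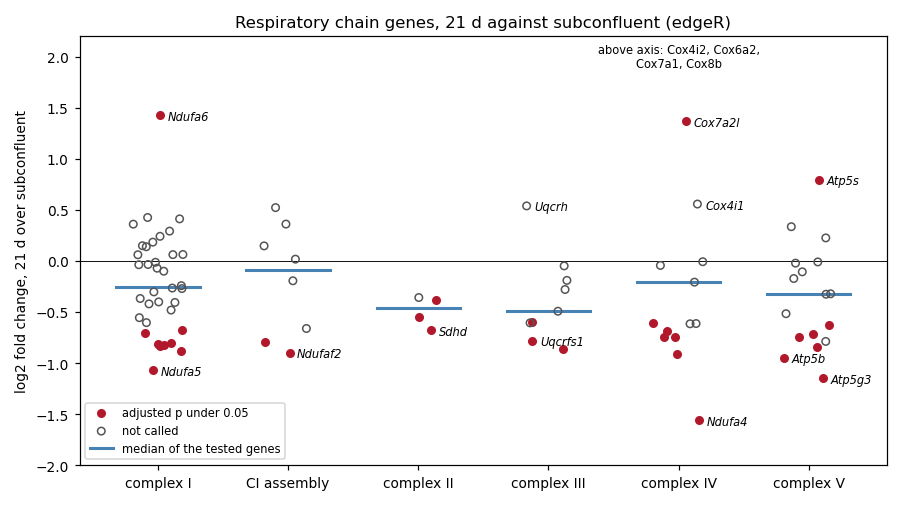
Each point is a gene placed by complex (horizontal axis) and by its log2 fold change at 21 d over subconfluent cells (vertical axis), red where the adjusted p was under 0.05 and open where not, with the median of the tested genes of each complex as a blue bar. The medians run from -0.09 for complex I assembly factors to -0.49 for complex III, and Ndufa6, Cox7a2l and Atp5s stand above 0 among called genes, as do the 4 genes named above the axis.

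Of the 36 subunits of complex I, which oxidizes NADH, 8 fell, 1 rose and 27 did not pass the test, with a median log2 fold change of -0.25. Among all genes 23.5% were called lower and 27.3% higher, so the share of falls was about that of genes in general. Without the 24 h libraries 18 fell and 5 rose, beside 32.1% and 34.0% of all genes. These shares are also the background for the counts of the other complexes below. Among the catalytic core subunits, Ndufs8, which holds iron-sulfur clusters, measured 105 and 114 RPKM in subconfluent replicates A and B, 117 and 128 in confluent cells, 126 and 87.8 at 24 h, 71.2 and 67.1 at 14 d, and 55.0 and 59.3 at 21 d. Both libraries of 14 d and of 21 d lay below all libraries of the earlier stages, and at 21 d the gene stood at -0.82 on the log2 scale relative to subconfluent cells (standard error, SE, 0.19, adjusted p = 0.0086). The other core genes described here did not pass the test. Ndufs1, an iron-sulfur subunit of the NADH-oxidizing module, was at 36.2 and 37.5 RPKM in subconfluent and 39.5 and 43.6 RPKM in 21 d cells (log2 fold change 0.29, adjusted p = 0.16). Ndufs7, of the quinone-reducing module, had a log2 fold change of 0.06, and Ndufv1 and Ndufv2, of the NADH-oxidizing module, of -0.27 and -0.10, while Ndufs3 was at 0.14 and Ndufab1, the acyl carrier protein and an accessory subunit, at -0.42 (adjusted p from 0.068 to 0.86). In the fit without 24 h libraries Ndufs1 (0.28, adjusted p = 0.042) was called higher and Ndufv1 (-0.28, adjusted p = 0.0053) and Ndufab1 (-0.43, adjusted p = 0.0011) lower, so core subunits of this complex were called in both directions. Ndufs1 shares 489 exon bases with the opposite-strand gene Ino80dos, which had 8 to 248 counts (log2 fold change at 21 d -0.54, adjusted p = 0.66), and 9 with Eef1b2 (0.86, adjusted p = 0.017), and Ndufs3 shares 88 with Kbtbd4. Ndufab1 had a mean of 2273.9 counts per library and its pseudogene Ndufab1-ps 1947.2. The part of these neighbours and of this pseudogene was not tested.

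The accessory subunit Ndufa5 had the largest fall of complex I. It measured 88.7 and 73.6 RPKM in subconfluent, 88.7 and 93.1 in confluent, 116 and 66.8 in 24 h, 52.0 and 49.2 in 14 d, and 36.3 and 35.0 RPKM in 21 d cells. Every library of the last 2 stages lay below every earlier one, which gave a 2.10-fold fall from subconfluent to 21 d cells (log2 -1.07, SE 0.26, adjusted p = 0.011). Ndufa1, a small membrane subunit, went from 189 and 203 RPKM to 99.2 and 106 RPKM (log2 fold change -0.82, adjusted p = 0.016). The remaining falls in complex I were those of accessory subunits Ndufa12 (from 39.1 and 37.1 to 19.5 and 18.6 RPKM), Ndufa9 (from 105 and 106 to 56.8 and 53.3 RPKM), Ndufb7 (from 15.1 and 17.4 to 8.98 and 8.18 RPKM), Ndufb6 (from 153 and 155 to 86.1 and 88.2 RPKM) and Ndufs5 (from 43.9 and 49.5 to 27.0 and 26.9 RPKM), with log2 fold changes of -0.88, -0.83, -0.80, -0.71 and -0.68. In each of them the 21 d libraries lay below all libraries of the first 3 stages, and Ndufb6 shares exon bases with the opposite-strand gene Smim27. Ndufa6 moved the other way. This accessory subunit of the LYR protein family was at 42.0 and 44.5 RPKM in subconfluent, 54.4 and 56.7 in confluent, 116 and 76.9 in 24 h, 83.3 and 92.8 in 14 d, and 106 and 109 RPKM in 21 d cells. The 2 libraries of 21 d lay above all others except 24 h replicate A, and the rise over subconfluent cells was 2.69-fold (log2 1.43, SE 0.20, adjusted p = 9.4e-04). It was the 1 complex I subunit called higher at 14 d against confluent cells as well (0.88, adjusted p = 0.015). The 27 subunits without a call ranged from -0.60 (Ndufb8) to 0.43 (Ndufb11, log2 fold change), and Ndufb8, like Cyc1 below, had a confluent replicate B far above replicate A (106 against 61.0 RPKM).

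Complex I assembly factors bring the subunits together and are not part of the finished enzyme. Of the 8 factors, 2 fell, a share close to the 23.5% of all genes, and 0 rose. The others lay between -0.66 (Ndufaf6) and 0.52 (Ndufaf8) on the log2 scale. Without the 24 h libraries 4 fell and 1 rose. Ndufaf2 was at 39.5 and 40.0 RPKM in subconfluent, 34.7 and 39.2 in confluent, 40.5 and 30.0 in 24 h, 22.0 and 18.1 in 14 d, and 20.4 and 18.9 RPKM in 21 d cells (log2 fold change at 21 d -0.90, SE 0.18, adjusted p = 0.0048). Ndufaf4 fell from 12.4 and 11.6 RPKM to 6.08 and 6.67 RPKM (log2 fold change -0.79, SE 0.13, adjusted p = 0.0017), and its lowest libraries were those of 14 d, at 5.65 and 5.42 RPKM. Both factors thus stood at their lower level by 14 d.

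Complex II, succinate dehydrogenase, also a citric acid cycle enzyme, has its 4 subunits encoded in the nucleus, and 3 of the 4 fell. Sdhd, a membrane anchor, was at 71.9 and 73.1 RPKM in subconfluent, 75.8 and 76.1 in confluent, 77.1 and 62.8 in 24 h, 54.3 and 56.9 in 14 d, and 41.4 and 42.2 RPKM in 21 d cells. The stages 14 d and 21 d did not overlap with each other or with earlier stages, giving -0.68 on the log2 scale at 21 d (SE 0.13, adjusted p = 0.0036). Sdhb, the iron-sulfur subunit, fell from 38.9 and 39.2 to 24.5 and 24.7 RPKM (log2 fold change -0.55, adjusted p = 0.020) and Sdha, the flavoprotein, from 48.0 and 46.5 to 34.2 and 32.8 RPKM (-0.38, adjusted p = 0.0061). Sdhc, the other anchor, was at 45.3 and 46.7 and then 33.2 and 33.0 RPKM (-0.36, adjusted p = 0.077), and was called lower in the fit without the 24 h libraries (adjusted p = 8.6e-04), so that 4 of 4 were called there.

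In complex III, which passes electrons from ubiquinol to cytochrome c, 3 of 9 genes fell and 0 rose, and without the 24 h libraries 4 fell and 1 rose. Uqcrfs1, the Rieske iron-sulfur protein, measured 58.7 and 59.3 RPKM in subconfluent, 58.2 and 60.8 in confluent, 59.8 and 49.5 in 24 h, 35.8 and 38.1 in 14 d, and 31.4 and 31.9 RPKM in 21 d cells (log2 fold change at 21 d -0.78, SE 0.12, adjusted p = 0.0016). All 14 d and 21 d libraries lay below all earlier ones. Uqcrb, a small subunit near the quinone site, fell from 68.2 and 68.3 to 33.8 and 35.4 RPKM (-0.86, adjusted p = 0.0045), and its exons overlap Gm10767 on the opposite strand. The core proteins differed: Uqcrc1 fell from 99.0 and 104 to 61.1 and 62.5 RPKM (-0.60, adjusted p = 0.015), while Uqcrc2 was at 39.6 and 38.1 and then 35.5 and 33.8 RPKM (-0.05, SE 0.08, adjusted p = 0.64). Uqcrh, the hinge protein next to cytochrome c1, was the 1 gene of the complex above 0, at 63.2 and 63.6 and then 84.5 and 85.4 RPKM (0.54, adjusted p = 0.12, and 6.4e-04 in the fit without the 24 h libraries), and part of its reads may be shared with 2 pseudogenes. The heme-bearing Cyc1, cytochrome c1, was at 119 and 124 RPKM in subconfluent, 129 and 225 in confluent, 116 and 109 in 24 h, 89.8 and 89.1 in 14 d, and 67.6 and 79.8 RPKM in 21 d cells. Its confluent replicate B stood far above replicate A (log2 ratio of A to B -0.81), and the fold change at 21 d, -0.61, did not pass the test (adjusted p = 0.067).

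**Figure D2:**
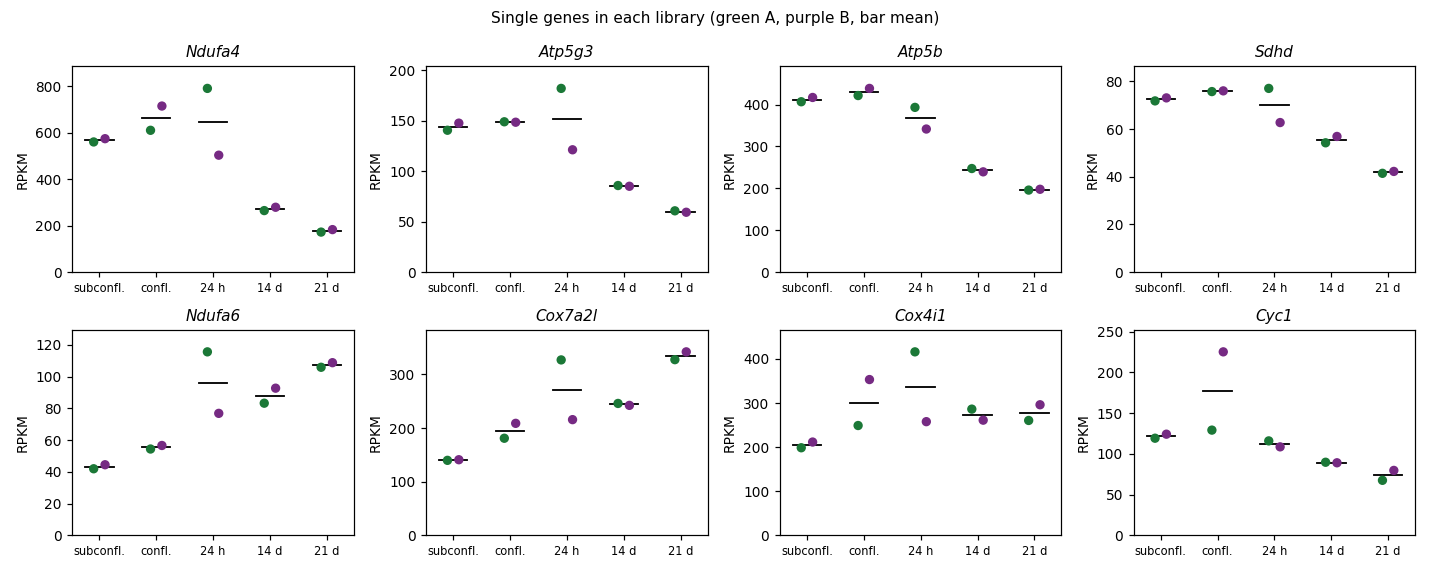
RPKM (vertical axis, starting at 0) of 8 genes in each library by stage (horizontal axis), replicate A in green, replicate B in purple and the mean as a bar. Ndufa4, Atp5g3, Atp5b and Sdhd lie lower at 14 d and 21 d than at every earlier stage, Ndufa6 and Cox7a2l rise, and Cyc1 shows the high confluent replicate B.

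Complex IV, cytochrome c oxidase, held both the largest fall and the largest rises, with 6 of 17 tested genes lower and 5 higher (8 and 6 without the 24 h libraries). Of the 5, Cox7a1, Cox8b and Cox4i2 passed the count filter through stages where they were high, so their calls are no independent support. Cox6a2 shares exon bases with Itgad, and the other was Cox7a2l. Ndufa4, named as a complex I gene but now counted as a subunit of complex IV, lies on chromosome 6 and was among the most abundant members. It measured 561 and 575 RPKM in subconfluent, 611 and 716 in confluent, 792 and 504 in 24 h, 265 and 279 in 14 d, and 172 and 183 RPKM in 21 d cells. The libraries of 21 d lay below those of 14 d, and these below all earlier ones, a 2.95-fold fall from the first stage to the last (log2 -1.56, SE 0.23, adjusted p = 0.0010). It was also the largest fall at 14 d against confluent cells (-1.07, adjusted p = 0.010). Of the subunits that surround the catalytic core, Cox5a fell from 119 and 124 to 58.5 and 60.6 RPKM (-0.92, adjusted p = 0.022), Cox6a1 from 331 and 359 to 208 and 211 RPKM (-0.61, adjusted p = 0.038) and Cox7a2 from 109 and 118 to 62.6 RPKM in both libraries (-0.75, adjusted p = 0.032). Cox5b, which binds zinc, fell from 144 and 127 to 75.5 and 80.1 RPKM (-0.69, adjusted p = 0.049). Cox4i1, the regulatory subunit, was not among the falls. It was at 199 and 212 RPKM in subconfluent, 249 and 353 in confluent, 416 and 258 in 24 h, 286 and 261 in 14 d, and 261 and 296 RPKM in 21 d cells (log2 fold change at 21 d 0.56, SE 0.26, adjusted p = 0.12), and was called higher without the 24 h libraries (0.55, adjusted p = 0.022). Both 21 d libraries lay above both subconfluent ones. Cox8a (-0.04, adjusted p = 0.89), Cox7b (-0.21, adjusted p = 0.52) and Cox6b1 (-0.62, adjusted p = 0.055) did not pass the test either, and Cox6b1 was called lower without the 24 h libraries (-0.62, adjusted p = 1.1e-04). Cox4i1 shares 154 exon bases with Emc8 and Cox5a 269 with Gm26631, genes of the opposite strand, and Gm26631 was also lower at 21 d (-0.76, adjusted p = 0.025).

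Cox7a2l, also known as the supercomplex factor SCAF1, which helps join complexes III and IV, rose. It was at 139.8 and 141 RPKM in subconfluent, 181 and 209 in confluent, 327 and 216 in 24 h, 246 and 242 in 14 d, and 327 and 342 RPKM in 21 d cells, a 2.58-fold rise from the first stage to the last (log2 1.37, SE 0.21, adjusted p = 0.0013). The 2 libraries of 21 d were above those of 14 d, and each of these above the confluent and subconfluent ones. Its relative Cox7a2 fell, and the share of Cox7a2l in the summed RPKM of Cox7a1, Cox7a2 and Cox7a2l went from 56.1% and 54.3% in subconfluent cells through 59.4% and 60.5%, 66.7% and 68.8%, and 77.2% and 77.8% at the next 3 stages to 83.7% and 84.4% at 21 d. The 24 h replicates, which differed in level, were close in this share. The muscle form Cox7a1 had at most 21 counts in a library. It was called higher at 21 d, with 26 counts over both libraries against 3 in subconfluent cells (10.96-fold, 95% interval 3.36 to 56.6, which covers counting error only).

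Among the forms typical of other tissues, Cox8b and Cox4i2 had nearly all of their reads at 14 d and 21 d. Cox8b, a heart and skeletal muscle form, had 0 counts in both subconfluent libraries, 0 and 1 in confluent, 0 and 0 in 24 h, 54 and 21 in 14 d, and 38 and 70 in 21 d cells, which is at least 45.5-fold higher at 21 d than in subconfluent cells (with a floor of 3 counts over the group; adjusted p = 4.4e-04). Its widespread relative Cox8a was at 376 and 415 RPKM at 21 d, and Cox8b made up 0.795% and 0.583% of the group. Cox4i2, a form known for lung and for low oxygen, had 1 and 0 counts in subconfluent, 3 and 2 in confluent, 4 and 3 in 24 h, 86 and 29 in 14 d, and 4 and 10 in 21 d cells. It was 30.6-fold higher at 14 d than in confluent cells (95% counting interval 12.8 to 96.1, adjusted p = 0.0026). At 21 d against 14 d it fell again by 2.98 on the log2 scale (adjusted p = 0.024), so that its highest level was at 14 d. Cox8b, Cox4i2 and Cox7a1 passed the count filter through stages where they were high, so their p-values and intervals only describe these counts. Cox6a2, the heart and skeletal muscle form of subunit 6a, had 9 and 2 counts in subconfluent, 3 and 15 in confluent, 21 and 12 in 24 h, 57 and 4 in 14 d, and 339 and 681 in 21 d cells, or 34.7 and 30.5 RPKM in the last. Its log2 fold changes were 6.92 at 21 d against subconfluent (adjusted p = 2.4e-04) and 4.42 at 21 d against 14 d cells (adjusted p = 0.0056). However, Cox6a2 (chr7:128205435-128206387 of GRCm38, minus strand) lies within Itgad, an integrin gene of the opposite strand, and shares 70 of its 680 exon bases with it, and Itgad had 17 and 10, 19 and 32, 28 and 33, 86 and 14, and 299 and 667 counts at the same stages. The 2 genes rose in the same libraries and in similar numbers, and without a stated use of strand reads on the shared bases cannot be assigned to 1 of them. Ndufa4l2, the relative of Ndufa4 known as a hypoxia-responsive gene, was at 39.4 and 40.5 RPKM in subconfluent and 22.3 and 21.7 RPKM in 21 d cells (-0.74, adjusted p = 0.023). It shares exon bases with the more abundant Shmt2, which fell too (-1.11, adjusted p = 6.2e-05). Against Ndufa4 it gained in share, from 6.56% and 6.58% of their summed RPKM in subconfluent to 11.5% and 10.6% in 21 d cells. Beside these muscle forms, the skeletal muscle markers summed to 43.1 and 44.0 RPKM in subconfluent and 14.5 and 14.6 RPKM in 21 d cells. This sum was mostly Acta1, and Myod1 and Myog had 3 counts or fewer. The 3 muscle markers tested all lay below 0 on the log2 scale at 21 d against subconfluent cells. At 14 d against confluent cells 2 of them lay above 0, neither called, and 1 below. The remaining members were not tested: Cox6b2 had at most 1 count and Cox7b2 at most 3 in a library, and Cox8c had 0 in all 10.

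In complex V, the ATP synthase, 6 of 17 genes fell and 1 rose (11 and 2 without the 24 h libraries). The catalytic β subunit Atp5b measured 407 and 417 RPKM in subconfluent, 422 and 439 in confluent, 393 and 342 in 24 h, 247 and 239 in 14 d, and 196 and 198 RPKM in 21 d cells. The 14 d libraries lay below all earlier ones and the 21 d libraries below those of 14 d, a 1.93-fold fall from subconfluent cells (log2 -0.95, SE 0.12, adjusted p = 4.5e-04). Its partner Atp5a1, the α subunit, went from 277 and 282 to 156 and 157 RPKM (-0.72, SE 0.10, adjusted p = 7.5e-04), and shares exon bases with Haus1. Atp5o, of the stalk that holds the catalytic head, fell from 66.8 and 70.9 to 38.2 and 37.8 RPKM (-0.74, adjusted p = 0.026) and Atp5f1, subunit b of the same stalk, from 91.1 and 92.6 to 56.7 and 53.3 RPKM (-0.62, adjusted p = 0.0061). Both overlap genes of the opposite strand, those of Atp5o with less than 1 count per library on average. The gene that rose was Atp5s, a coupling factor gene of low level, from 3.79 and 4.10 to 6.08 and 6.53 RPKM (0.79, adjusted p = 0.0046). The 10 without a call ran from -0.79 (Atp5k) to 0.33 (Atp5l) on the log2 scale, and both of these genes may share reads with named pseudogenes. Atp5e, the ε subunit, had the widest gap between the 24 h replicates, with 549 RPKM in A and 278 in B.

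Atp5g1, Atp5g2 and Atp5g3 code for the same mature c subunit, which forms the rotor ring, with different import signals. Their shares are of RPKM and so depend on the gene lengths used, 4906, 1183 and 2177 bases. Atp5g3 was at 141 and 148 RPKM in subconfluent, 149 and 149 in confluent, 182 and 121 in 24 h, 85.8 and 85.0 in 14 d, and 60.7 and 59.3 RPKM in 21 d cells, a log2 fold change at 21 d of -1.15 (SE 0.20, adjusted p = 0.0023). Atp5g1 also fell, from 25.8 and 28.2 to 13.8 RPKM in both libraries (-0.85, adjusted p = 0.014). Atp5g2, in contrast, was at 116 and 126 RPKM in subconfluent, 125 and 138 in confluent, 179.9 and 129 in 24 h, 124 and 126 in 14 d, and 107 and 113 RPKM in 21 d cells (-0.02, SE 0.18, adjusted p = 0.93). Its share of the summed RPKM of the 3 genes went from 41.2% and 41.8% in subconfluent to 59.0% and 60.8% in 21 d cells, and that of Atp5g3 went from 49.7% and 48.8% to 33.4% and 31.8%. By RPKM the gene with the highest level of the 3 was therefore Atp5g3 in both subconfluent libraries and Atp5g2 in both 21 d libraries. In raw counts Atp5g3 was also above Atp5g2 in subconfluent cells (31521 and 9963 against 14188 and 4638). At 21 d their counts were close, at 4623 and 10320 for Atp5g3 and 4443 and 10728 for Atp5g2.

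**Figure D3:**
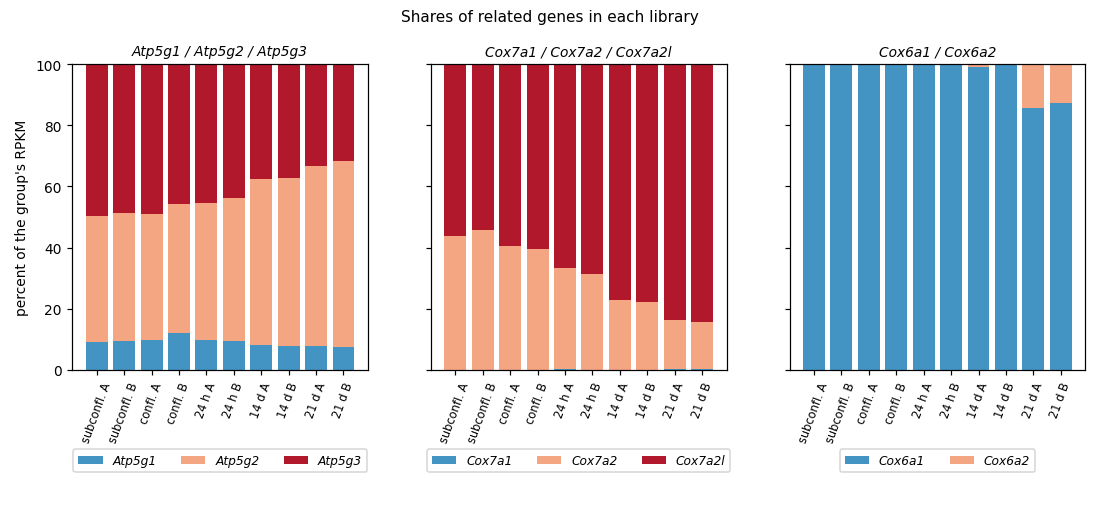
Stacked bars of the share (percent of summed RPKM, vertical axis) of related genes in each library, for the genes of the c subunit, of subunit 7a and of subunit 6a. Atp5g2 and Cox7a2l take a growing share across the stages, and Cox6a2, which shares exon bases with Itgad, reaches 14.3% and 12.7% at 21 d.

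Promoters are shown for the c subunit genes and the Cox8 forms, whose levels went apart, and for Ndufa4 and Ndufa6, the largest fall and the largest rise among abundant members. RefSeq promoter windows on GRCm38.p6, from 250 bases before to 50 after each start, were found for 74 of the 94 members (79 windows). They were searched on both strands for CGCATGCG, the core of the motif of NRF1, for CCGGAAGT, a motif of ETS factors such as GABPA, and for ATGGCGG, the core of the YY1 motif, factors known for control of respiratory genes. The first was in 11 of 79 member windows (13.9%) and in 1.87% of all 32851 windows, the second in 5 (6.33%) against 3.89%, and the third in 13 (16.5%) against 4.05%. Of the 26 members with a match, 0 rose and 7 fell at 21 d against subconfluent cells, and of the 46 tested members with a window but without a match 4 rose and 17 fell, with medians of -0.35 and -0.30. Without the 24 h libraries 3 rose and 16 fell of the members with a match, and 7 rose and 25 fell of those without. Among all genes 27.3% were called higher and 23.5% lower, or 34.0% and 32.1% without the 24 h libraries. The 7 windows follow, all on the minus strand and written 5′ to 3′, with matches in capitals. Atp5g2, whose level did not pass the test, has an NRF1 core starting 41 bases before the start, and Cox8a has the ETS motif at 2 places. The other 5 windows hold none of the 3 motifs.
Atp5g1, chr11:96075582-96075881: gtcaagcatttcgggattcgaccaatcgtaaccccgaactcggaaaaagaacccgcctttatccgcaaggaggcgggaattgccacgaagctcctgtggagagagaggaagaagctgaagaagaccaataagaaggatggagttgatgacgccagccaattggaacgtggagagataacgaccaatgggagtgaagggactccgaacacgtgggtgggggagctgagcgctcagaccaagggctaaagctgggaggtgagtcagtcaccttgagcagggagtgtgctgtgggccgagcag
Atp5g2, chr15:102670998-102671297: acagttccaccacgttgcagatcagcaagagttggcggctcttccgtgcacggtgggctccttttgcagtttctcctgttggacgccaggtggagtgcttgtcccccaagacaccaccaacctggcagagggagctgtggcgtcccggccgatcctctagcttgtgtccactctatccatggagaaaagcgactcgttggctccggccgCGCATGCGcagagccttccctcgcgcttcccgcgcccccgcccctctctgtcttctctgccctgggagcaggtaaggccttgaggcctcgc
Atp5g3, chr2:73911277-73911576: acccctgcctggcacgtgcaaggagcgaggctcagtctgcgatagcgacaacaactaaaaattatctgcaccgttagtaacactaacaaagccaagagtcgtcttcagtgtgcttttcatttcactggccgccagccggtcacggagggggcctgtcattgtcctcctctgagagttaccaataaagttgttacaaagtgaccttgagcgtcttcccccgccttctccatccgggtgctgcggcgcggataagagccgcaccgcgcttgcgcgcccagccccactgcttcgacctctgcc
Cox8a, chr19:7217567-7217866: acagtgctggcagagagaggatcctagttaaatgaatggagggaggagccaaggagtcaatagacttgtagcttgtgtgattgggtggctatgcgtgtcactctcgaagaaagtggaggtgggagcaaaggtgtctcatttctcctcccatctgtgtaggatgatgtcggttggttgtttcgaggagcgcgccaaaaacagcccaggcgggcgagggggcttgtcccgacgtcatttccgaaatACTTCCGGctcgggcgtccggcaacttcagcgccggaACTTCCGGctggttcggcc
Cox8b, chr7:140900397-140900696: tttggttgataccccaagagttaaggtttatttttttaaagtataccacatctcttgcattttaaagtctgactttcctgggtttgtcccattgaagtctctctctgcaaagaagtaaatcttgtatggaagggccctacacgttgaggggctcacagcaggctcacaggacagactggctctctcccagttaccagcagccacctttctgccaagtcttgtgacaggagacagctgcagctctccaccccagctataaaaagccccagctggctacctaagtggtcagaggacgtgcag
Ndufa4, chr6:11907401-11907700: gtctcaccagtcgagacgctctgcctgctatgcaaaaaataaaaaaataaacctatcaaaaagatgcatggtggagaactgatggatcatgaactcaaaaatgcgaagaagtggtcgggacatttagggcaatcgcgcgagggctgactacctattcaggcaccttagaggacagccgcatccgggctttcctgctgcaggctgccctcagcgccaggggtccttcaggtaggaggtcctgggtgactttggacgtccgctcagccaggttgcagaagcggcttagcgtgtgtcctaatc
Ndufa6, chr15:82354242-82354541: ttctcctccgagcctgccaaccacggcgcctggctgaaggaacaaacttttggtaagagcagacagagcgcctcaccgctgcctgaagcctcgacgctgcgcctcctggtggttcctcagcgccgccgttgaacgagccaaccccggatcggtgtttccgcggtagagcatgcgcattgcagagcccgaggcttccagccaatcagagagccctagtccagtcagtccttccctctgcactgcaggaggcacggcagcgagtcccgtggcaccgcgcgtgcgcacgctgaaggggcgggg

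The matches describe letters in these windows, and binding was not measured.

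By stage, the summed RPKM of each complex was highest in confluent or 24 h cells and lowest, for all 5 complexes, at 21 d. For complex I it was 2378 and 2464 in subconfluent, 2768 and 3073 in confluent, 3761 and 2477 in 24 h, 2166 and 2101 in 14 d, and 1896 and 1939 in 21 d cells. Complex V ran from 2215 and 2293 to 1597 and 1639.7 between the ends of the course, a log2 ratio of the means of -0.48, complex III from 626 and 648 to 445 and 465 (-0.49) and complex II from 204 and 206 to 133 and 133 (-0.62). Complex IV, at -0.38, and complex I, at -0.34, had the smaller ratios of the 5. Mean CPM is not scaled by gene length and, unlike RPKM, includes the TMM scaling. For complex IV it covers the 17 tested genes. In mean CPM complex I was at -0.14 and complex IV at -0.061. The parts of length, scaling and genes covered in this difference were not tested. In summed RPKM both 21 d libraries lay below both subconfluent libraries in each complex. In mean CPM complex IV overlapped, at 70.2 and 71.0 in subconfluent and 65.0 and 70.4 in 21 d cells. The measures also differed at 14 d. In mean CPM complex I (57.7 and 57.3) then lay above both subconfluent libraries (53.9 and 56.0), as did complex IV (76.2 and 73.4). Complexes II, III and V lay below the subconfluent libraries at 14 d in mean CPM too. The assembly factors were at their lowest at 14 d.

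**Figure D4:**
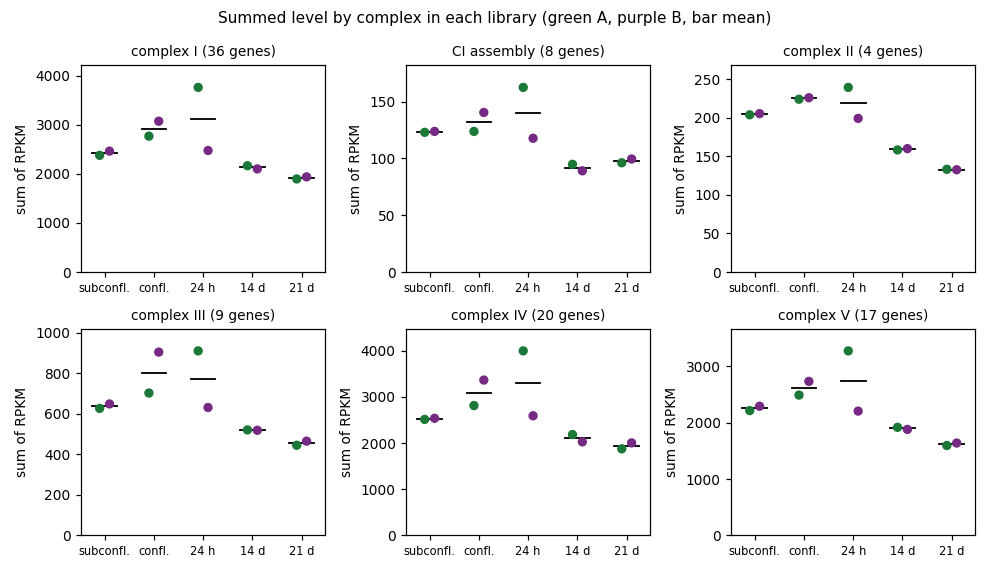
Summed RPKM (vertical axis, starting at 0) of the genes of each complex in each library by stage (horizontal axis), replicate A in green, replicate B in purple and the mean as a bar. In each panel the 14 d and 21 d libraries lie below all earlier ones, and the 24 h replicates are far apart. In mean CPM, not shown here, the 14 d libraries of complexes I and IV lie above the subconfluent ones.

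At 14 d against confluent cells 14 members fell and 3 rose (Ndufa6, Cox4i2 and Cox8b). Of the latter, Cox4i2 and Cox8b passed the count filter only through later stages, where they were high. Among all genes 15.3% were called lower and 16.9% higher. The share called lower was thus about that of all genes and the share called higher was below it, with a median log2 fold change of -0.25 for members and 0.03 for all genes. The falls were those of Ndufa4, the assembly factors Ndufaf4 (-0.80) and Ndufaf2 (-0.67), Cyc1 (-0.77, adjusted p = 0.044), Atp5g1 (-0.72), Atp5b (-0.61), Atp5a1 (-0.38), Uqcrc1, Uqcrfs1 and 5 subunits of complex I (Ndufa1, Ndufa9, Ndufa12, Ndufb6 and Ndufs8). All but Cyc1 were also called lower at 21 d against subconfluent cells. For Cyc1 the confluent replicates lay apart, at 129 RPKM in A and 225 RPKM in B. Without the 24 h libraries 49 fell and 6 rose, beside 26.1% and 26.6% of all genes. Leaving out confluent replicate B, or 14 d replicate A or B, left 4 members called, of which 2 were lower without confluent replicate B and 1 was lower without either 14 d library, so the count of falls rests on these libraries. Leaving out 21 d replicate A left 7 members (4 lower), 21 d replicate B 8 (5 lower), confluent replicate A 8 (6 lower) and subconfluent replicate A or B 11 (8 lower), while without 24 h replicate A or B 52 and 54 were called. With the replicate letter as a block 11 were called (8 lower). Shares of all genes are not given for the fits with a replicate left out or with the block.

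Comparisons within a set of libraries that share their index pair gave fewer calls. Between confluent and subconfluent cells, both in growth medium, 0 members were called by edgeR (background 1.95% higher and 1.34% lower) and 0 by DESeq2, with 3 and 6 members at an unadjusted p under 0.05. Without 24 h replicate A or B 17 were called, and without confluent replicate A 1. The share of all genes called is not given for these fits with a replicate left out. It is also not given for DESeq2 or for an unadjusted p, in this comparison or in that of 24 h with confluent cells. Those counts are not read as a property of the members. In the fit of all libraries the median was 0.20, with 82 of 91 members higher in confluent cells. In the fit without the 24 h libraries 18 rose and 1 fell (Ndufa4l2), beside 8.16% and 8.34% of all genes, and the largest of these rises were those of Uqcr11 (0.50, adjusted p = 0.031), a complex III subunit, Ndufa1 (0.47, adjusted p = 0.011) and Cox7a2l (0.45, adjusted p = 0.014). Ndufa1 thus rose at confluence in that fit and was lower at 21 d than at the start. Between 24 h and confluent cells 0 members were called by edgeR (background 3.59% higher and 1.57% lower), and 2 by DESeq2, with 5 and 7 at an unadjusted p under 0.05. This comparison depended on the library used: without 24 h replicate B 63 members rose and 0 fell, beside 19.9% of all genes called higher, and without replicate A 1 rose and 10 fell, beside 6.15% higher and 3.97% lower. The direction at 24 h thus differed between the replicates.

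Between 21 d and 14 d, both in differentiation medium, 2 members were called: Cox6a2 rose and Cox4i2 fell (background 3.77% higher and 5.95% lower). Of 91 members 79 had lower values at 21 d, with a median of -0.27 against -0.03 for all genes, and without the 24 h libraries 42 fell and 3 rose, beside 15.6% and 11.0% of all genes. In that fit Ndufa4 (-0.69, adjusted p = 0.0025) and Atp5g3 (-0.58, adjusted p = 6.1e-04) fell further and Cox7a2l (0.39, adjusted p = 0.012) rose further after 14 d. Leaving out a library of 14 d or 21 d left 1 member called, and without 24 h replicate A or B 48 and 46 were called. Over the 5 stages together 42 of 91 members differed, 46.2%, against 48.9% of all genes. This count changed widely when single replicates were left out, and was highest without a 24 h library. Shares of all genes are not given for the fits with a replicate left out in this paragraph, so those counts are not read as a property of the members.

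Other genes of the same system were examined as lists for 21 d against subconfluent cells. The background was 23.5% lower and 27.3% higher, or 32.1% and 34.0% without the 24 h libraries. The genes named from the lists were chosen after their values were seen. The 10 genes of mitochondrially encoded subunits in the table, of 13 on the list, were listed at 0 counts in all libraries, and no level or change is given for them. Cytochrome c, the carrier between complexes III and IV, fell: Cycs was at 52.4 RPKM in subconfluent and 16.8 RPKM in 21 d cells (means of 2, log2 fold change -1.52, adjusted p = 2.1e-04). Of the 10 genes for the carrier and for ubiquinone synthesis 5 fell and 2 rose (6 and 2 without the 24 h libraries), among them Coq7, a hydroxylase of the quinone ring (-1.46, adjusted p = 0.0016), and Coq9, its partner (0.94, adjusted p = 1.1e-04). Of 36 further assembly factors 8 fell and 6 rose (median 0.10; 10 and 10 without the 24 h libraries). Cox10, needed to make the heme of complex IV, fell (-1.13, adjusted p = 7.9e-05) and Surf1, a complex IV assembly factor, rose (1.18, adjusted p = 4.6e-04). Of 77 genes for mitochondrial ribosomal proteins 28 fell and 3 rose (median -0.39, range -1.64 to 1.34; 46 and 5 without the 24 h libraries). Among 12 tested regulators of mitochondrial biogenesis 3 fell and 2 rose, or 6 and 2 without the 24 h libraries. Pprc1, a coactivator (-1.21, adjusted p = 1.3e-04), the transcription factor Nrf1 (-0.46, adjusted p = 0.0030) and Tfam, which packages and transcribes mitochondrial DNA (-0.34, adjusted p = 0.016), fell, and Tfb1m (1.67, adjusted p = 0.0013) and Twnk, the mitochondrial helicase (0.97, adjusted p = 1.4e-04), rose. The coactivator Ppargc1a had at most 6 counts in a library.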

How the data were processed

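RNA-seq was made from total RNA with 51 bp paired-end reads on an Illumina instrument. Per the submitters' processing notes, FastQC, TopHat2 2.0.9, R 3.0.1 and the mm10 genome were used; the counting tool, its annotation and its use of strand are not given in the sources used here. The authors deposited raw read counts per gene, with no normalization, and RPKM values, which scale the counts by gene length and by library. Libraries run in 2 lanes were used as merged by the authors. The tables hold 40620 identifiers, 39547 of them with a GENCODE vM21 symbol.

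Counts of all 10 samples were fitted with edgeR 4.0.16 (R 4.3.3, filterByExpr, TMM, quasi-likelihood test, 5 groups), with Benjamini-Hochberg adjustment over the 20808 genes tested. A gene was called at an adjusted p under 0.05 with any fold change, and "rose" and "fell" are used for called genes. Fold changes are on the TMM scale and may differ slightly from ratios of RPKM. Levels, sums and shares are from RPKM without a test. Total counts of 44736156 to 162939333 limit precision mainly for genes with few counts, where intervals cover counting error only. In simulated counts with 21 d changes, 82 of 100 genes changed 4-fold and 25 of 100 changed 2-fold were called, and 4.46% of calls were on unchanged genes.

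The genes named are core subunits, groups of related forms, the largest called rise and fall of each complex in each comparison, called members past 2-fold and members that could not be tested, and 1 of them is not reported here. The members and lists were chosen with earlier results of these data known. Alternatives were DESeq2 1.42.0, other normalizations and filters, limma 3.58.1 on log2 RPKM, a block for the replicate letter, removal of a length trend, fewer groups and each replicate left out. Same-lettered samples of different stages did not deviate together (correlations from -0.184 to 0.1).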

Additional observations from a re-analysis of the deposited data

How the results depend on the processing

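The median log2 fold change of the members at 21 d against subconfluent cells stayed negative under every alternative run (-0.46 to -0.27), and with library size alone the median of all genes moved to -0.12. The number of members called differed widely between alternatives. At 21 d against subconfluent cells 35 were called, 54 with library size alone, 70 with the 2 groups alone, 64 without the 24 h samples and 68 when a length trend was removed as well, an alternative chosen after seeing the data. At 14 d against confluent cells, where 17 were called, the counts were 49 with library size alone, 28 with DESeq2, 45 with the 2 groups alone, 55 without the 24 h samples, 44 with limma on log2(RPKM + 1) and 44 on log2(RPKM + 0.1), 31 with the length trend removed and 58 with it removed and no 24 h samples. For confluent against subconfluent cells they were 1 with the 2 groups alone, 19 without the 24 h samples and 18 with the length trend removed in addition. For 24 h against confluent cells 1 member was called with library size alone, with no filter, with at least 10 counts in every sample, with the length trend removed and with lanes summed, and 2 with DESeq2. At 21 d against 14 d, with 2 called, the counts were 6 with library size alone, 10 with DESeq2, 0 with at least 10 counts in every sample, 44 with the 2 groups alone, 45 without the 24 h samples, 6 and 5 with limma, 10 with the length trend removed and 50 with it removed and no 24 h samples. Over the 5 stages, with 42 called, they were 67 with library size alone, 77 without the 24 h samples and 79 with the length trend removed as well. The cause was not tested. Shares of all genes called are given above for the fit without the 24 h samples, but not for the other alternatives in this paragraph. For most fits with a replicate left out they are not given either. These counts show how far the calls depend on the processing and are not read as a property of the members.

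Leaving out each of the 10 replicates in turn gave 19 to 63 members at 21 d against subconfluent, 4 to 54 at 14 d against confluent, 0 to 17 at confluent against subconfluent, 0 to 63 at 24 h against confluent, 1 to 48 at 21 d against 14 d and 14 to 89 over the 5 stages, the highest when a 24 h library was left out. A stage left with 1 library was assumed to vary like the others. With the replicate letter as a block, which pairs samples that share a letter alone, 34, 11, 0, 0, 2 and 33 were called in the comparisons as ordered here, and with the block and the length trend removed, chosen after seeing the data, 29 at 14 d against confluent, 1 at 24 h against confluent and 6 at 21 d against 14 d.

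The log2 ratios of summed RPKM at 21 d to subconfluent cells kept their sign. Mean CPM includes the TMM scaling, which RPKM does not. From mean CPM the ratios were -0.14 for complex I, -0.21 for assembly factors, -0.45 for complex II, -0.32 for complex III, -0.061 for complex IV and -0.61 for complex V. From geometric means of RPKM they were -0.61 for complex II and -0.49 for complex IV. For the named genes no called value changed sign, while 13 of 1003 alternative values, of 6 genes called in neither fit (6 of Ndufs7, 2 each of Atp5g2 and Cox8a, and 1 each of Cox7b, Ndufs3 and Uqcrc2), had the other sign. Of the alternative values 896 stayed on the same side of the threshold, 57 passed it where the reported value did not and 50 no longer passed it.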
